A study of Homo sapiens with 9 samples.

Results

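The mature miRNAs of epithelial and squamous cells hsa-miR-203a-3p, hsa-miR-203b-3p, hsa-miR-203b-5p and hsa-miR-205-5p, are described here. These 4 were chosen by name, with their counts in these lines already known, and 3 of them matched a row of the count table, which holds 1198 mature miRNAs, and all 3 were among the 367 miRNAs that passed the filter on low counts. miR-203b-5p is not analysed here. Because the choice used the counts of each line, levels and differences of the 3 members between lines are given as a description, with standard errors and no p-values.

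Small RNA was sequenced from the colorectal carcinoma epithelial line HCT116, which was not selected for drug resistance, and from sublines of it that had been grown continuously in rising concentrations of a drug. HCT-Oxa-c was selected with oxaliplatin, a platinum compound that crosslinks DNA, and HCT-FU-c with 5-fluorouracil, a pyrimidine analog that blocks thymidylate synthesis. Each line gave 3 biological replicates, 9 libraries in all, and each drug is represented by 1 subline, so an effect of the drug and a property of the particular subline cannot be told apart. The libraries held 856383 to 2207538 miRNA counts, and replicate 3 of each line was the shallowest. The 5 miRNAs listed as intestinal epithelial markers were detected in every line, with a summed level of 9569 to 12640 CPM (counts scaled to a common library size, here after TMM scaling unless stated, which corrects library totals for composition). Most of that sum was miR-200c-3p, a general epithelial miRNA, at 9116 to 11360 CPM. The more intestinal miR-192-5p had 34.5 to 70.2 CPM, and miR-215-5p had 1 to 18 counts, fewer than 3 in 2 of the HCT-FU-c libraries.

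A mature miRNA guides the Argonaute protein to messenger RNAs that pair with its seed, the bases 2 to 8 from its 5′ end, and lowers their stability or translation. miR-203 is known from skin and other stratified epithelia, where it rises as basal cells leave the cell cycle and represses p63, the transcription factor that maintains basal progenitors. miR-205 is also abundant in stratified epithelia and in the basal layer of glands, and together with the miR-200 group it represses ZEB1 and ZEB2, transcription factors that silence E-cadherin during epithelial-mesenchymal transition.

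The mature sequences show how the members relate to each other. They are printed from RefSeq, 5′ to 3′, with the seed in capitals, and miR-203a-5p is added because it is the second arm of the miR-203a hairpin.
miR-203a-3p: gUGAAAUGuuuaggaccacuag
miR-203b-3p: uUGAACUGuuaagaaccacugga
miR-203b-5p: uAGUGGUCcuaaacauuucaca
miR-203a-5p: aGUGGUUCuuaacaguucaacaguu
miR-205-5p: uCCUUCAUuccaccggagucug
miR-203a-3p and miR-203b-3p had 17 of 22 aligned bases in common. The 5 differences, with positions counted from the 5′ end and the miR-203a-3p base first, were G1U, A6C, U11A, G14A and A21G, so 1 of them lies inside the seed and the 2 miRNAs have different seeds. The seeds of miR-203a-3p, miR-203b-3p and miR-205-5p were shared with no other human mature miRNA of RefSeq, and that of miR-203b-5p only with miR-6718-5p.

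The MIR203A and MIR203B hairpins are 1 locus read from both strands. In GRCh38.p14, MIR203A spans chr14:104117405-104117514 on the plus strand, and MIR203B spans chr14:104117418-104117503 on the minus strand, wholly inside it. Neither overlapped another annotated gene in GENCODE release 29, and the closest, the protein-coding ASPG, ended 1824 bases upstream of MIR203A. The hairpins are printed 5′ to 3′, each on its own strand, with both mature arms in capitals, because each arm of one is nearly the reverse complement of an arm of the other.
MIR203A hairpin: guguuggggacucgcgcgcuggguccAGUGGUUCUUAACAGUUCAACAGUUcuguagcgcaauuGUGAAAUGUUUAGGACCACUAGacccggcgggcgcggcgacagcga
MIR203B hairpin: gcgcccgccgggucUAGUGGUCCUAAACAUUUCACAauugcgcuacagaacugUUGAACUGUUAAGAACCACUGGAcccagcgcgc
miR-203a-3p was complementary to miR-203b-5p over 21 consecutive bases, and miR-203b-3p to miR-203a-5p over 20. The 2 3p arms, in contrast, lie at opposite ends of the overlap and do not pair with each other over such a run.

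MIR205 lies on chromosome 1, at chr1:209432133-209432242 on the plus strand of GRCh38.p14, within the long non-coding RNA gene MIR205HG. Of the 8 MIR205HG transcripts of GENCODE release 29 that span the hairpin, 7 have an exon that begins inside it, at position 209432204. miR-205-5p itself, at chr1:209432166-209432187, ends 17 bases before that exon start and is therefore intronic in these transcripts.

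Since the miR-203 arms overlap on opposite strands, the counts of complementary arms were set side by side to see whether both strands had been counted alike. miR-203a-5p had 0 to 4 counts per library and 6 in all, against 1518 counts of its complement miR-203b-3p, or 0.395%. Among the 12 other pairs of complementary miRNAs at 1 locus on opposite strands with rows for both, 6 had at least 100 counts on a partner, and in these the less counted partner reached 0.0258% to 2.17% of the other. In the pairs with fewer counts it reached 3.85% to 81.5%. The miR-203b-3p counts were thus not mirrored on the opposite strand. This cannot show whether they were assigned to the right strand, because reads placed wholly on the wrong strand would give the same picture. The same check of miR-203a-3p would need miR-203b-5p and was not made.

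miR-203a-3p, the main product of the locus, was the most abundant member, and its level was highest in HCT-Oxa-c and lowest in HCT-FU-c. The HCT116 libraries had 2150, 1881 and 2551 CPM in replicates 1, 2 and 3. The HCT-Oxa-c libraries had 3679, 3066 and 4336 CPM, and the HCT-FU-c libraries 1539, 1086 and 1919 CPM. Every HCT-Oxa-c library lay above every library of the other lines, whereas HCT116 and HCT-FU-c overlapped by replicate 3 of HCT-FU-c, which exceeded replicate 2 of HCT116. The mean was 3694 ± 635 CPM for HCT-Oxa-c, 2194 ± 337 for HCT116 and 1515 ± 417 for HCT-FU-c (SD, n = 3 each), from 1611 to 7020 counts per library. By mean CPM, miR-203a-3p ranked 34 of 1198 for HCT-Oxa-c, 43 for HCT116 and 53 for HCT-FU-c. CPM counts reads without a length term, and the mature members have 22 or 23 bases.

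In the fitted model the level of miR-203a-3p was 1.68-fold higher in HCT-Oxa-c than in HCT116, a log2 difference of 0.75 with a standard error of 0.27. HCT-FU-c was lower than HCT116 by a log2 difference of -0.53 (standard error 0.27). HCT-Oxa-c exceeded HCT-FU-c by 1.29 (standard error 0.27). With the replicate number as a block in the model the values were 0.75, -0.56 and 1.31, each with a standard error of 0.14. These comparisons share libraries, so they are not independent of each other. The labels do not say whether libraries with the same replicate number belong together. Between such libraries the differences were much alike. HCT-Oxa-c exceeded HCT116 by 0.77, 0.70 and 0.77 on the log2 scale in replicates 1, 2 and 3, and HCT-FU-c differed from HCT116 by -0.48, -0.79 and -0.41.

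miR-203b-3p, the 3p arm of the antisense hairpin, followed another order, with its highest levels in HCT116. The HCT116 libraries had 138.5, 111.4 and 528.9 CPM in replicates 1, 2 and 3. The HCT-Oxa-c libraries had 63.4, 61.7 and 323 CPM, and the HCT-FU-c libraries had 11.3, 12.1 and 178.6 CPM. In HCT-FU-c these levels rested on 15, 23 and 150 counts. Replicate 3 was the highest library in each line and made the lines overlap, while within each replicate number the order was the same, HCT116 above HCT-Oxa-c above HCT-FU-c. The mean was 260 ± 234 CPM for HCT116, 149 ± 151 for HCT-Oxa-c and 67.4 ± 96.4 for HCT-FU-c (SD, n = 3 each), and the SD was as large as the mean or nearly so in each line.

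Without regard to replicate number, the differences of miR-203b-3p were within the spread between libraries or close to it. The fitted log2 difference from HCT116 was -0.80 (standard error 1.14) for the oxaliplatin subline and -1.97 (1.18) for the 5-fluorouracil subline, and the former exceeded the latter by 1.17 (1.16). With the replicate number as a block in the model they were -0.91 (standard error 0.26), -2.52 (0.29) and 1.61 (0.28). Without replicate 3 of any line and without the block they were -1.0 (0.23), -3.4 (0.28) and 2.41 (0.28). Between same-numbered libraries, miR-203b-3p was 12.2-fold, 9.22-fold and 2.96-fold lower in HCT-FU-c than in HCT116, in replicates 1, 2 and 3. In HCT-Oxa-c against HCT116 the log2 differences were -1.13, -0.85 and -0.71. The direction of both was thus alike in all 3 replicate numbers, and the size for HCT-FU-c was smallest in replicate 3.

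The counts of both 3p arms within a library do not depend on scaling, and their ratio separated HCT116 from the sublines in replicates of the same number. miR-203b-3p made up 6.05%, 5.59% and 17.2% of the counts of both arms in HCT116, in replicates 1, 2 and 3. In HCT-Oxa-c the shares were 1.69%, 1.97% and 6.94%, and those of HCT-FU-c were 0.731%, 1.1% and 8.52%. The exact 95% binomial (Clopper-Pearson) interval of the HCT-FU-c replicate 1 share was 0.410% to 1.2%, and that of HCT116 replicate 1 was 5.27% to 6.91%; such intervals cover counting error only. In log2 units, the ratio of miR-203b-3p to miR-203a-3p was lower in HCT-Oxa-c than in HCT116 by differences of -1.90, -1.56 and -1.48. For HCT-FU-c they were -3.13, -2.41 and -1.15. The sublines themselves had no common order, since HCT-Oxa-c was above HCT-FU-c in replicates 1 and 2 (1.23 and 0.86) and below it in replicate 3 (-0.32). Averaged without regard to number, the log2 ratio averaged -3.44 ± 1.01 for HCT116, -5.08 ± 1.16 for HCT-Oxa-c and -5.67 ± 1.96 for HCT-FU-c (SD, n = 3 each), and the lines overlapped.

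**Figure D1:**
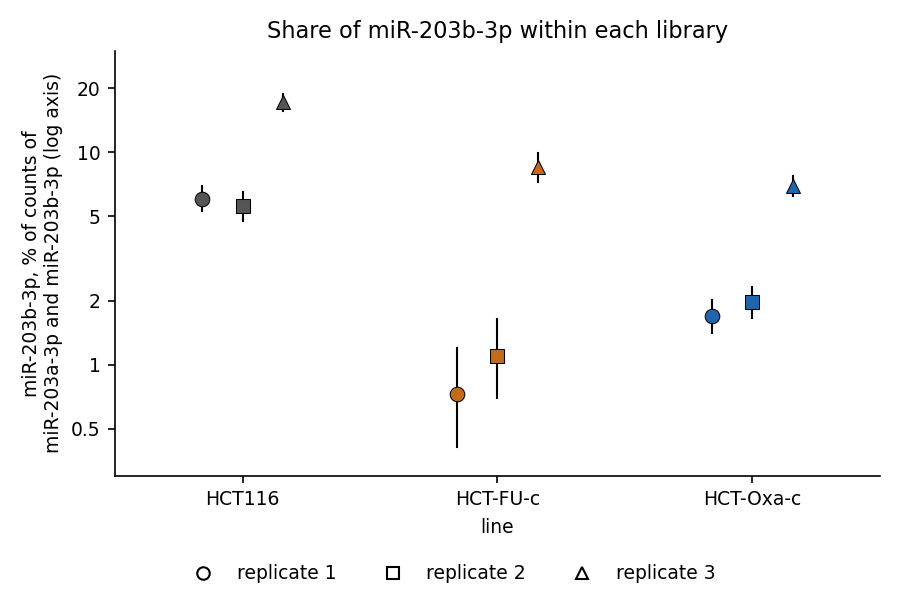
Share of miR-203b-3p in the summed counts of miR-203a-3p and miR-203b-3p in each library, in percent on a log axis, with exact 95% binomial intervals as vertical lines. Within each replicate number (shape) the HCT116 share is the highest, and replicate 3 stands above replicates 1 and 2 in every line.

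Replicate 3 stood apart for miR-203b-3p in all 3 lines. Its level was 15.3 times the mean of replicates 1 and 2 for HCT-FU-c, 5.17 times for HCT-Oxa-c and 4.23 times for HCT116. On the log2 scale, with a prior count of 2, these excesses were 3.78, 2.34 and 2.08, against medians over the 367 tested miRNAs of 0.02, 0.03 and 0.09, and miR-203b-3p ranked 3, 9 and 20 of 367. miR-203a-3p, from the same locus, had excesses of only 0.57, 0.37 and 0.34.

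The other tested miRNAs with an excess in replicate 3 at least as large in all 3 lines were 2, miR-451a and miR-122-5p, and both were on the lists of markers of other tissues. miR-451a, made in red blood cells, had 0 to 2 counts in the 6 libraries of replicates 1 and 2 and 86, 70 and 246 counts in replicate 3 of HCT116, HCT-FU-c and HCT-Oxa-c. miR-122-5p, the main miRNA of hepatocytes, had 0 to 7 counts in replicates 1 and 2 and 45, 20 and 45 in the same 3 libraries. For the whole list of 5 blood cell markers, the summed level was 2.10 to 11.3 CPM in replicates 1 and 2 and 88.1 to 269 in replicate 3, most of it miR-451a. Of the leukocyte miRNAs on that list, only miR-223-3p was highest by CPM in replicate 3 of every line. It had 5.34, 3.57 and 13.3 CPM there, from 4, 3 and 13 counts in HCT116, HCT-FU-c and HCT-Oxa-c. Replicates 1 and 2 had 0 to 2.10 CPM of it, from 0 to 4 counts. miR-142-5p had 2, 0 and 1 counts in replicate 3 of the same lines and up to 10 in replicates 1 and 2. miR-142-3p had 0 or 1 counts in replicate 3, and miR-150-5p had at most 2 in any library. The 6 mesenchymal markers summed to 227 to 384 CPM in replicates 1 and 2 and 422 to 692 in replicate 3, and this rise was that of miR-143-3p, at 60.4 to 196 and 312 to 561 CPM. Of the other mesenchymal markers, miR-145-5p, miR-199a-3p and miR-199b-3p were lower in replicate 3 of every line, and miR-214-3p and miR-199a-5p had at most 2 counts in a library. The counts of miR-199a-3p and miR-199b-3p rose and fell together over the libraries, so these are not separate evidence. Other lists differed too. The summed miR-200 group was lower in replicate 3, at 19880 to 21410 against 23630 to 26260 CPM, as were the intestinal markers, at 9569 to 9881 against 10690 to 12640 CPM, and the neuron list was higher, at 4808 to 5172 against 3834 to 4440 CPM, with the defining miR-124-3p at 0 to 2 counts. The part of RNA from other sources in the miR-203b-3p level of replicate 3 was not tested.

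miR-205-5p, the guide arm of its hairpin, was found mainly in HCT-Oxa-c. HCT-Oxa-c had 69, 48 and 31 counts in replicates 1, 2 and 3, or 36.2, 21.5 and 31.8 CPM. HCT116 had 2, 0 and 0 counts, and HCT-FU-c 4, 7 and 0. All 3 HCT-Oxa-c libraries lay above all others, and HCT116 and HCT-FU-c overlapped at 0. A count of 0 allows up to 3 counts, which is 1.34 to 4.01 CPM depending on the library, so low levels in HCT116 and in HCT-FU-c replicate 3 were not measurable. HCT-FU-c replicates 1 and 2, at 3.02 and 3.68 CPM, lay above their limits of 2.27 and 1.58 CPM. The mean was 29.8 ± 7.55 CPM for HCT-Oxa-c, 2.23 ± 1.96 for HCT-FU-c and 0.453 ± 0.784 for HCT116 (SD, n = 3 each), and even in HCT-Oxa-c miR-205-5p ranked only 218 of 1198.

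Pooled over replicates, miR-205-5p had 148 counts with HCT-Oxa-c, 11 with HCT-FU-c and 2 with HCT116. As CPM of the pooled totals this was 28.2 (exact 95% interval 23.9 to 33.1), 3.02 (1.51 to 5.41) and 0.541 (0.0656 to 1.96). The ratio of HCT-Oxa-c to HCT116 was 52.1, with a counting interval from 14.2 to 434, because it rests on the 2 counts of 1 HCT116 library. The ratio to HCT-FU-c had a narrower counting interval, at 9.33 (5.07 to 19.1), and that of HCT-FU-c to HCT116 was 5.59 (1.22 to 51.9). These intervals cover counting error only and leave out the spread between libraries. In the fitted model without the block, HCT-FU-c differed from HCT116 by a log2 difference of 2.05 (standard error 1.11). HCT-Oxa-c exceeded HCT116 by 5.58 (0.97) and HCT-FU-c by 3.53 (0.78) in the same model. With the block these 3 differences were 2.16 (1.11), 5.60 (0.79) and 3.44 (0.60). Without replicate 3 of any line, the HCT-Oxa-c ratios were 39.9 (10.8 to 334) to HCT116 and 6.95 (3.75 to 14.3) to HCT-FU-c. Unlike miR-203b-3p, miR-205-5p had no excess in replicate 3 of HCT-Oxa-c, at 1.1 times the mean of replicates 1 and 2.

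Called across all 367 tested miRNAs (edgeR quasi-likelihood test, Benjamini-Hochberg adjusted p under 0.05), HCT-Oxa-c against HCT116 gave 2.45% of miRNAs, and miR-205-5p was the 1 member among them. With the replicate block 14.7% were called, and all 3 members were, with miR-203a-3p and miR-205-5p higher and miR-203b-3p lower. The libraries did not overlap for 16.1% of miRNAs and for 2 members, miR-203a-3p and miR-205-5p. For HCT-FU-c against HCT116, edgeR called 0% of miRNAs and no member, where 15 miRNAs had an unadjusted p under 0.05 and DESeq2 called 4. With the block 5.45% were called, and miR-203a-3p and miR-203b-3p were among them, both lower. Libraries did not overlap for 8.72% of miRNAs and for no member. For HCT-Oxa-c against HCT-FU-c, 4.36% were called without the block, including miR-203a-3p and miR-205-5p, and 26.4% with it, including all 3 members, all higher in HCT-Oxa-c. Libraries did not overlap for 22.9% of miRNAs and for miR-203a-3p and miR-205-5p. Since the members were chosen with these levels known, nothing is read from these counts. miR-205-5p also reached the minimum count of 10 of the filter only in HCT-Oxa-c, with at most 7 counts in a library elsewhere. It was therefore tested only because of the line in which it is high. Without the block, the call of miR-205-5p against HCT116 was lost when either of 2 HCT116 libraries or 1 HCT-Oxa-c library was left out, with fitted log2 differences of 4.99 to 8.40. The calls of miR-203a-3p and miR-205-5p between the sublines were each lost when any of 6 of the 9 libraries was left out, and the number of miRNAs called there fell from 16 to 6 without HCT-FU-c replicate 1 or 2.

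The miR-200 group, which shares the ZEB1 and ZEB2 targets with miR-205, was abundant in every line, with a summed level of 19880 to 26260 CPM over its 9 listed miRNAs, and 8 of the 9 were tested. None of the 8 was called in any comparison by edgeR without the block or by DESeq2, and the edgeR test gave 0 with an unadjusted p under 0.05. Its median log2 difference from HCT116 was 0.07 in the oxaliplatin subline and 0.00 in the 5-fluorouracil subline, beside -0.01 and 0.02 over all tested miRNAs. Between the sublines it was -0.04, beside -0.07. miR-200b-3p averaged 9665 ± 1185 CPM for HCT-Oxa-c, 9053 ± 1691 for HCT116 and 8409 ± 690 for HCT-FU-c (SD, n = 3 each). miR-429 was lower in HCT-Oxa-c, at 1465 to 1759 CPM against 1854 to 2260 for HCT116. Its log2 difference was -0.30 (standard error 0.21, edgeR adjusted p = 0.841). It was the 1 member of the 8 without overlap in that comparison, where libraries did not overlap for 16.1% of all tested miRNAs. With the block, 1 of the 8 was called, miR-200a-5p, for which HCT-Oxa-c exceeded HCT-FU-c by 0.48 (standard error 0.17, edgeR adjusted p = 0.0389). In that comparison 26.4% of all tested miRNAs were called with the block, so nothing is read from this call about the group.

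Of 7 further miRNAs listed for skin and squamous epithelium, 6 had a row and 3 were tested, miR-31-5p, miR-31-3p and miR-34a-5p. miR-31, abundant in keratinocytes and in colorectal carcinoma, had 5626 to 5999 CPM of its 5p arm with HCT-Oxa-c, 4834 to 5510 with HCT-FU-c and 4387 to 4959 with HCT116. The HCT-Oxa-c libraries were thus above all others, although the difference from HCT116 was small, at 0.30 on the log2 scale (standard error 0.18, edgeR adjusted p = 0.696). Libraries did not overlap for 16.1% of all tested miRNAs in that comparison and for 22.9% between the sublines. miR-34a-5p, a target of p53, had 225, 196 and 291 CPM in the HCT-FU-c libraries, above the 127, 127 and 178 of HCT116 and the 103, 118.5 and 139.5 of HCT-Oxa-c. Between HCT-FU-c and HCT116, libraries did not overlap for 8.72% of all tested miRNAs. Without the block edgeR called none of the 3 tested in any comparison, with 1 at an unadjusted p under 0.05 when HCT-FU-c was compared with either other line and 0 otherwise. DESeq2 called 1 of the 3 between the sublines, where it called 43 of all 367, and 0 otherwise. With the block miR-34a-5p in HCT-FU-c exceeded HCT116 by 0.72 (standard error 0.18, edgeR adjusted p = 0.0230) and HCT-Oxa-c differed from HCT-FU-c by -0.97 (edgeR adjusted p = 0.000332). The block gave calls for 5.45% and 26.4% of all tested miRNAs in these comparisons.

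The untested members of that list were at the limit of detection. miR-944, encoded in an intron of TP63, the gene for p63, had 2, 1 and 7 counts in replicates 1, 2 and 3 of HCT-Oxa-c and 0 in the 6 libraries of HCT116 and HCT-FU-c. It was thus seen in the line in which miR-205-5p was seen best, but with 1 or 2 counts in 2 of the 3 libraries it was not distinguishable there from the limit that a count of 0 allows. miR-184, abundant in the cornea, had 2 to 9 counts with HCT-FU-c, 0 to 3 with HCT-Oxa-c and 0 to 2 with HCT116. miR-34c-5p, which is related to miR-34a-5p, had 0 counts outside HCT-FU-c, where it had 3, 8 and 0. miR-375 is not analysed here.

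The Pearson correlation of log2 CPM over the 9 libraries was 0.615 between miR-203a-3p and miR-203b-3p, 0.633 between miR-203a-3p and miR-205-5p and -0.159 between miR-203b-3p and miR-205-5p. After the mean of same-numbered libraries was subtracted, these were 0.583, 0.747 and -0.049. These values describe 9 libraries from only 3 lines and share the libraries' depth and composition. The tested miRNAs most like miR-203a-3p were miR-100-5p (0.956), miR-200a-5p (0.95), miR-181a-5p (0.940), miR-181b-5p (0.929) and miR-181a-3p (0.926). After the subtraction, miR-181b-5p (0.996), miR-181a-5p (0.986), miR-30d-5p (0.980), miR-148a-3p (0.974) and miR-200a-5p (0.971) came first, so 3 of 5 were shared.

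For miR-203b-3p the most similar were miR-676-3p (0.901), miR-7974 (0.897), miR-454-3p (0.889), miR-181d-5p (0.889) and miR-4796-3p (0.885), and after the subtraction miR-21-3p (0.959), miR-452-5p (0.948), miR-1180-3p (0.907), miR-454-3p (0.892) and miR-7974 (0.866), with 2 of 5 shared. For miR-205-5p they were miR-192-5p (0.918), miR-27b-3p (0.918), miR-31-5p (0.905), miR-23b-3p (0.894) and miR-376c-3p (0.893). After the subtraction they were miR-27b-3p (0.984), miR-379-5p (0.972), miR-376a-3p (0.967), miR-23b-3p (0.966) and miR-487b-3p (0.931), again with 2 shared. miR-27b-3p and miR-23b-3p are made from 1 cluster, and both were among the 5 miRNAs most like miR-205-5p by either measure. Some of the named miRNAs were near the limit of detection. miR-376c-3p averaged 5.91 CPM, miR-376a-3p 8.15 and miR-4796-3p 5.91 over the 9 libraries, each with a lowest value of 0. No miRNA was among the 5 of more than 1 member by the same measure.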

How the data were processed

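Raw counts of reads for each mature miRNA in the 9 libraries were used as deposited by the authors. The libraries were made from total RNA with the NEXTflex Small RNA-Seq v3 kit. The submitters' processing notes name CASAVA 1.8, Bowtie 1.1.2, DESeq2 and GRCh38.p7 without giving their roles. A further 9 columns of per-sample values, the counts divided by a factor per library, were not used. Counts were tested with edgeR 4.0.16 (R 4.3.3; quasi-likelihood F test, TMM normalization, line as factor, all 9 libraries), on the 367 miRNAs kept by filterByExpr (minimum count 10, minimum total 15), with Benjamini-Hochberg adjustment and a threshold of 0.05. Log2 fold changes used a prior count of 0.125. Each standard error is the absolute log2 fold change divided by the square root of the quasi-likelihood F statistic. It is thus approximate and is not taken from the spread of same-numbered differences. The code was tested on simulated data. Deviations from the line means correlated at 0.41 to 0.51 between replicate 1 libraries, 0.56 to 0.65 for replicate 2 and 0.74 to 0.76 for replicate 3. Libraries with different numbers correlated at -0.68 to 0.61, so only replicate 3 lay wholly above them. Treating same-numbered libraries as pairs is therefore an assumption for replicates 1 and 2. For the tested members, fitted values with the replicate number as a block are given beside those without it. Replicates of a line differed by 11.3 to 459 times their sampling noise (chi-square per degree of freedom), so each library was kept as a replicate. Names of 1059 of 1198 miRNAs matched RefSeq. The members and the lists of related and marker miRNAs were chosen with earlier results of these data known. The text names the members, miR-203a-5p, the listed miRNAs and, for each tested member, the 5 most correlated miRNAs by either measure. miR-6718-5p was named for its seed. Alternatives were other normalizations, filters, sets of libraries and DESeq2 1.42.0.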

Additional observations from a re-analysis of the deposited data

How the results depend on the processing

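The number of miRNAs called depended most on the replicate block. In HCT-Oxa-c against HCT116 it was 9, and it was 54 with the replicate block, 39 with replicates 1 and 2 only, 23 with DESeq2, 16 with no filter and 4 with at least 10 counts in every library. In HCT-FU-c against HCT116 it was 0, and in the same order 20, 8, 4, 1 and 1. In HCT-Oxa-c against HCT-FU-c it was 16, with 97 with the replicate block, 75 with replicates 1 and 2 only, 43 with DESeq2, 9 with at least 10 counts in every library and 10 with only the 6 libraries compared. Leaving out 1 library at a time gave 4 to 12, 0 and 6 to 21 in these comparisons, with the lowest value of the first without HCT116 replicate 1 or 2, and of the last without HCT-FU-c replicate 1 or 2. Scaling by total counts moved the median log2 difference of all tested miRNAs from 0.02 to 0.19 in HCT-FU-c against HCT116 and from -0.07 to -0.26 in HCT-Oxa-c against HCT-FU-c, and it changed the calls from 5 higher and 4 lower to 8 and 4 in HCT-Oxa-c against HCT116 and from 13 higher and 3 lower to 11 and 6 in HCT-Oxa-c against HCT-FU-c. The cause was not tested.

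miR-203a-3p kept its direction under all 17 alternatives in each comparison, with log2 differences of 0.62 to 0.88, -0.74 to -0.34 and 1.1 to 1.49 in the order above, a range set by leaving out 1 library, and it was called in 2, 1 and 10 of the 17. miR-205-5p kept its direction under all 16 alternatives that gave a value, and it was called in 13, 0 and 9 of them. The members were chosen with their counts known, and miR-205-5p passed the filter only through HCT-Oxa-c. Nothing is therefore read from the numbers of calls of any member given here. miR-205-5p has no value with at least 10 counts in every library. Its log2 differences without 1 library were 4.99 to 8.40, 1.43 to 4.87 and 3.11 to 4.03, and both highest values against HCT116, 8.40 and 4.87, came without HCT116 replicate 1, which holds its 2 HCT116 counts. Its call against HCT116 in HCT-Oxa-c was lost without replicate 1 of HCT-Oxa-c (5.45) and without replicate 1 (8.40) or 2 (4.99) of HCT116. Between the sublines, the calls of miR-203a-3p and miR-205-5p were both lost without HCT116 replicate 1 (1.29 and 3.53), HCT-FU-c replicate 1 (1.3 and 3.69) or 2 (1.1 and 4.03), or any HCT-Oxa-c replicate (1.37 and 3.45, 1.43 and 3.76, 1.16 and 3.48). miR-203b-3p depended on single libraries. Without 1 library its log2 differences were -2.04 to 0.25, -4.45 to -0.93 and -0.06 to 3.65, and it was called in 2, 3 and 2 of 17 alternatives. The values -4.45 and 3.65 came without HCT-FU-c replicate 3, and the direction turned to 0.25 without HCT116 replicate 3 and to -0.06 without HCT-Oxa-c replicate 3. The mean log2 ratio of miR-203b-3p to miR-203a-3p without 1 library was -4.02 to -3.11 in HCT116, -6.79 to -4.96 in HCT-FU-c and -5.75 to -4.69 in HCT-Oxa-c. Depth limits miR-205-5p outside HCT-Oxa-c and miR-944 everywhere, where counts were at or under 7.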
